A study of Mus musculus with 40 samples.

Results

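Neutrophils and monocytes sorted from the blood of healthy mice were compared by RNA sequencing. The comparison holds the 4 libraries labelled WT_PG (neutrophils) and the 4 labelled WT_PC (monocytes), which are 8 of the 40 libraries of the series and were chosen by their labels alone. The other libraries are sorted blood neutrophils and monocytes of mice with colon tumors, the same myeloid cells and epithelial and stromal cells sorted from the tumors, and both non-immune fractions of normal colon. Each of the 10 groups has 4 libraries. The comparison asks how the healthy blood cells differ by cell type, which is the baseline for the blood cells of tumor-bearing mice.

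For both healthy groups the labels give strain C57Bl6, a healthy state, no transgene and no agent, so by these labels they differ in the sorted cell only. The title numbers and the sex-linked transcripts, given below, also differ in part between the groups and cannot be told apart from the cell type. The protocol fields of the labels repeat the breeding and tamoxifen text of the tumor model for these mice as well. The age of these mice is not given in the sources used here. Cells were stained after red cells had been lysed, and the gate that the study describes, shown for tumor tissue, is CD45+ EpCAM- CD11b+ MHCII-, then Ly6G+ with low Ly6C for neutrophils, or Ly6G- with high Ly6C for monocytes. Ly6C-low monocytes thus lie outside the monocyte gate. Total RNA of each sort was amplified before libraries were made. It is not stated whether a library comes from 1 mouse or from pooled mice. Some monocyte titles join more than 1 number, each neutrophil title holds 1, and some monocyte libraries held transcripts of both sexes (below). Whether these are pools was not tested. The p-values measure only the spread between these libraries, which may be partly technical. The tumor-bearing mice carried Apc fl/fl and Cdx2CreERT2, a tamoxifen-inducible Cre driven by a promoter that is active in the colon epithelium, and received 1 injection of tamoxifen at 25 mg/kg at an age of 8 to 10 weeks. Their strain labels name C57Bl6 with an Sv strain whose number differs from library to library.

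Neutrophils are short-lived granulocytes that leave the bone marrow with their granules already filled. They follow chemoattractants into tissue, where they engulf microbes, release granule enzymes and produce reactive oxygen. Ly6C-high monocytes leave the marrow through the chemokine receptor CCR2 and can become macrophages or antigen-presenting cells in tissue. Both cells descend from a common progenitor whose fate is set by transcription factors of the C/EBP, PU.1, IRF and KLF families.

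Levels are given as RPKM (a read count divided by the length of the gene and by the depth of the library), in the order of replicates 1 to 4 of a group. Log2 differences are neutrophils over monocytes, with the standard error after ±, from edgeR's quasi-likelihood test of the counts with 4 libraries per group, and adjusted p-values are Benjamini-Hochberg values over all genes tested. A gene was called where the adjusted p was under 0.05 and the log2 difference was beyond 1.5 in either direction. The scale of the RPKM values differs from that of the test by -0.78 log2 units for neutrophils against monocytes, so an RPKM ratio understates neutrophils relative to the log2 difference printed beside it. The counting is not stated to use strand, so reads of a gene and of a gene on the other strand that overlaps it cannot be told apart. This touches Il1b (Il1bos), B2m (Patl2), Csf1r (Hmgxb3), Cx3cr1 (Ttc21a), Nlrp12 (microRNA genes), Nxpe4 (Nxpe2), Arg2 (Vti1b), Junb (Prdx2), Cebpd (Spidr), Cd180 (Mast4), Cd300lf (Rab37), Ciita (Dexi), Idh3b (Nop56), Ncf1 (Gtf2ird2) and Fn1 (Apol7d), and Ace, Adam8, Adgre4, Apba1, Bcl2, Ccl6, Cd44, Cebpa, F13a1, H2-Eb1, Il10ra, Il1r2, Il1rap, Malat1, Mmp25, Ms4a4c, Pla2g7, Pparg, Pygl, Slc2a1, Stxbp6, Trem1 and 2010005H15Rik overlap gene models of unknown function.

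The libraries of a group were not alike. Total counts were 10717873, 19260891, 14634721 and 14984403 in neutrophils and 18826286, 16183341, 15909759 and 13994069 in monocytes. The titles of the neutrophil libraries carry the numbers 13, 14, 15 and 16, and those of the monocyte libraries 10, 11 with 12, 13 with 14, and 15 with 16. The 3 libraries whose titles hold 15 or 16 (neutrophil replicates 3 and 4 and monocyte replicate 4) stood apart from the rest. The summed RPKM of 10 platelet genes was 230.4, 236, 3.12 and 11.2 in neutrophils and 113, 115, 118 and 1.89 in monocytes. Globin and other erythroid genes summed to 462, 539, 4.47 and 9.49 in neutrophils and to 633, 603, 385 and 1.35 in monocytes. Both sums were low in all 3 of these libraries and high in the other 5. The sex of the mice is not labelled, and Xist, which is transcribed from the inactive X chromosome of females, was at 3.66, 4.02, 0.0164 and 0.0418 RPKM in neutrophils and 5.12, 9.81, 31.96 and 0.0131 in monocytes. The Y-linked Eif2s3y was at 0.0959, 0.177, 4.90 and 5.91 RPKM in neutrophils and 4.35, 1.86, 0.318 and 3.62 in monocytes. In the 3 libraries of titles 15 and 16 Eif2s3y was above 3 RPKM and Xist below 0.05. In the libraries of titles 13 and 14 Xist was above 3, and monocyte replicates 1 and 2 held both. Within these 8 libraries sex, the titles and the low sums cannot be told apart. In blood libraries of tumor-bearing mice with Xist at 6.31 RPKM or more, erythroid sums were 534 to 1068 and platelet sums 25.8 to 43.4. Where Xist was below 0.05 they were 6.19 to 84.3 and 1.76 to 25.4. The part of sex in these sums was not tested. Monocyte replicate 2 stood apart in other measures, with a neutrophil marker sum of 148.5 against 51.2 to 52.2 in the other monocyte libraries. Results are therefore also given without a library where that ended a call or moved a called difference by over 1.5 times, and within titles 13 and 14 or 15 and 16 for some of the genes.

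**Figure D1:**
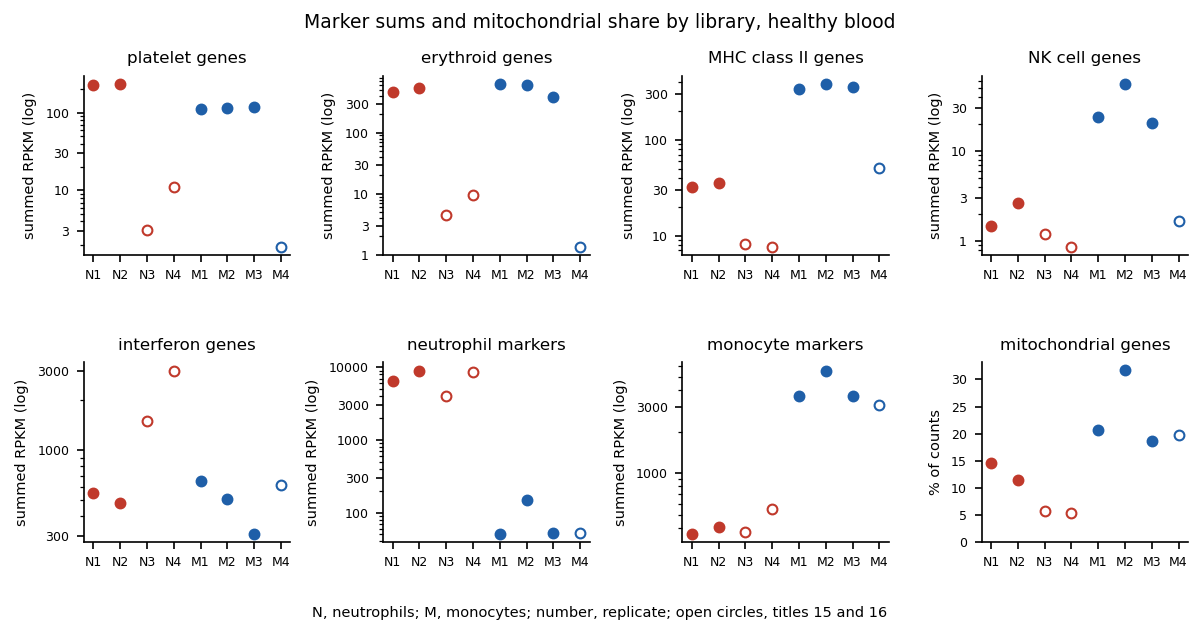
Summed RPKM of 7 sets of marker genes (log axes) and the mitochondrial share of counts (%, linear axis from 0), 1 point per library, in the 4 neutrophil and 4 monocyte libraries, with open circles for titles 15 and 16. Platelet and erythroid sums were 11.2 or less in the 3 open-circle libraries and 113 or more in the others, and neutrophil marker sums were at least 4068 in neutrophils against at most 148.5 in monocytes.

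More genes reached a fixed RPKM level in monocyte libraries. The RPKM scale differs from that of the test by -0.78 log2 units for neutrophils against monocytes. This lowers such a count in neutrophils, and its part was not tested. Genes at 1 RPKM or more numbered 5646 ± 410.2 (SD, n = 4) in neutrophils and 7874 ± 307 in monocytes, and the groups did not overlap (2-sided exact permutation test over 70 arrangements, p = 0.0286, which is the smallest it can give). Adjusted over the 17 library measures tested, that p was 0.0608, and none of the 17 passed. The markers of the sorted cells separated the groups, with neutrophil marker sums of 6586, 9018, 4068 and 8526 RPKM in neutrophils. Monocyte marker sums were 3642, 5534, 3629 and 3114 RPKM in monocytes and 363, 406, 376 and 549.9 in neutrophils. Whether markers of the other cell type come from cells that passed the wrong gate or from low expression in the sorted cell cannot be told apart here, and neither can fewer cells of a type and less RNA per cell.

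Of 15033 genes tested, 5576 (37.1%) were called. Of all genes tested, 16.7% (2510 genes) were higher in neutrophils and 20.4% (3066) higher in monocytes. Each count of called genes in the lists below is to be read beside these shares. The median log2 difference of all genes tested was -0.07. Of the called genes, 1239 differed by more than 16-fold, 533 of them higher in neutrophils and 706 in monocytes. The 2 groups did not overlap in CPM (counts scaled to the depth of the library) for 5215 of the called genes (93.5%), against 50.6% of all genes tested. Differences within titles, here and below, are not fitted. They are between means of log2 CPM with a constant added, which shrinks them for genes near 0 in a group. The direction of a call was the same within titles 13 and 14 and within titles 15 and 16 for 5570 of the 5576 genes. Among the called genes 3872 (69.4%) were beyond 1.5 in both, against 4120 of all 15033 genes tested. These libraries also gave the calls, so the agreement is a description and not a separate check. Genes higher in neutrophils were 45.0% of the calls, but 22.8% when the deposited RPKM values were tested in place of the counts (log2 of RPKM plus 0.1, 1196 against 4043 genes), so the split between the directions depends on the scale. The median over all genes tested was -0.63 on that scale.

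**Figure D2:**
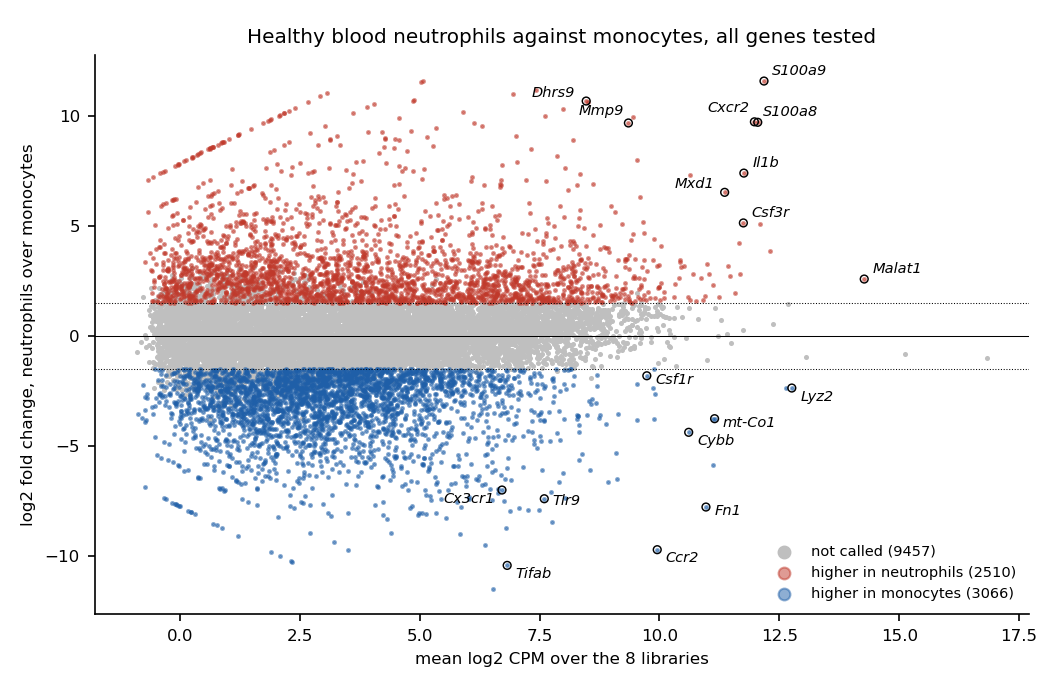
Log2 difference of neutrophils over monocytes against mean log2 CPM for the 15033 genes tested, 1 point per gene, with the 2510 genes called higher in neutrophils in red and the 3066 called higher in monocytes in blue. Dotted lines mark 1.5 in either direction, and named genes reach 11.60 (S100a9) and -10.44 (Tifab).

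The 10 called genes with the largest differences in favor of neutrophils, among those of high mean level and without overlap between the groups, were led by calgranulin and stefin genes. S100a9, a subunit of the calcium-binding antimicrobial protein calprotectin, was at 722, 5305, 2012 and 4629 RPKM in neutrophils and 1.22, 0.385, 2.09 and 3.003 in monocytes, a log2 difference of 11.60 ± 0.98 (adjusted p = 1.93e-05). Its lowest neutrophil library was far above its highest monocyte library. The stefin genes Stfa2l1 and Stfa2, which encode intracellular inhibitors of cysteine proteases, differed by 11.19 ± 0.71 and 11.02 ± 0.67. The stefin-like genes Gm5483 and 2010005H15Rik had 1 count each over the 4 monocyte libraries, and their ratios of counts were 4660 (95% interval 836 to 184100) and 4493 (806 to 177500), which cover counting error only. Fitted log2 differences of 11.62 and 11.57 for these 2 genes rest on that count and became 13.03 and 12.97 without monocyte replicate 3. Copies of this family on chromosome 16 are nearly identical, and how reads that map to several of them were counted is not given, so the share of each copy is uncertain.

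The other leading genes in neutrophils were enzymes and receptors. Dhrs9, a retinol and steroid dehydrogenase, was at 36.8, 27.1, 22.04 and 30.4 RPKM in neutrophils and 0.0369, 0.0427, 0.0244 and 0.0157 in monocytes (10.69 ± 0.35, adjusted p = 6.05e-07), the smallest standard error of the 10. Steap4, a metalloreductase, was at 55.1, 36.5, 26.2 and 45.5 RPKM in neutrophils and 0.00456, 0.0184, 0.147 and 2.84e-05 in monocytes (10.63 ± 1.04, or 13.11 without monocyte replicate 3). In both genes every neutrophil library stood above every monocyte library, which the rule of no overlap required of the genes named here. Il1f9, which encodes a cytokine of the interleukin-1 family (IL-36γ), differed by 10.32 ± 0.90, or 12.23 without monocyte replicate 1. Mrgpra2a, an orphan G protein-coupled receptor with a near-identical neighbor, differed by 10.17 ± 0.55. Nlrp12, a NOD-like receptor that restrains NF-κB signaling, was at 21.4, 15.7, 12.6 and 14.2 RPKM in neutrophils and at most 0.0394 in monocytes (10.02 ± 0.57).

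Among monocytes the same rule gave signaling genes and a chemokine receptor. Arhgef37, a putative exchange factor for small GTPases, was at 13.98, 21.5, 14.96 and 17.8 RPKM in monocytes and had 3 counts over the 4 neutrophil libraries, a ratio of counts of 3182 (1089 to 15430). Tifab, an inhibitor of the TRAF6 adaptor TIFA, was at 17.9, 22.9, 20.1 and 16.8 RPKM in monocytes and 0.0296, 0.00672, 0.00148 and 0.00204 in neutrophils (-10.44 ± 0.60, or -11.54 without neutrophil replicate 1). Ccr2, the receptor through which monocytes leave the marrow, was at 116, 122, 74.4 and 63.4 RPKM in monocytes and 0.141, 0.0991, 0.0270 and 0.00503 in neutrophils (-9.72 ± 0.86, adjusted p = 2.36e-05). All 3 genes were near 0 in every neutrophil library. Ptpro, a receptor-type tyrosine phosphatase, was at 10.6, 10.8, 8.20 and 9.88 RPKM in monocytes and 0.0147, 0.0132, 0.0168 and 0.00805 in neutrophils (-8.75 ± 0.31). Hpgd, which inactivates prostaglandins, differed by -8.30 ± 0.91, or -10.44 without neutrophil replicate 2. Ms4a6d, a membrane protein of the MS4A family, differed by -8.45 ± 0.92, or -9.66 without neutrophil replicate 4. Nxpe4 differed by -9.49 ± 0.86, between -10.30 without neutrophil replicate 2 and -8.87 without monocyte replicate 2. Stxbp6 and Apba1, which take part in vesicle trafficking, differed by -9.01 ± 0.45 and -8.10 ± 0.44, and the processed pseudogene Gm5424 by -8.04 ± 0.80, or -9.92 without neutrophil replicate 2.

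Promoters of 4 of these genes are shown. C/EBP factors, whose members are described further on, act through sites with the core letters searched here, and 3 of the genes are shown because their window holds those letters. Each sequence is the 250 bases before the RefSeq transcription start in GRCm38.p6, read 5′ to 3′ on the strand of the gene, with capitals for a match to the C/EBP core TTNNGCAA or its reverse complement TTGCNNAA. S100a9 lies at chr3:90695722-90695971 (minus strand), Steap4 at chr5:7960222-7960471 (plus), Nlrp12 at chr7:3249741-3249990 (minus) and Tifab, a monocyte gene whose window does not hold them, at chr13:56178886-56179135 (minus).
S100a9: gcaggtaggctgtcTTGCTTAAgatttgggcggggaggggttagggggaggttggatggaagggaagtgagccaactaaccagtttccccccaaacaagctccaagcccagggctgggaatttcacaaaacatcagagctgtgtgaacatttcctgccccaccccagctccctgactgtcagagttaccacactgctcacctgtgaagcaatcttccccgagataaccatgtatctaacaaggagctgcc
Steap4: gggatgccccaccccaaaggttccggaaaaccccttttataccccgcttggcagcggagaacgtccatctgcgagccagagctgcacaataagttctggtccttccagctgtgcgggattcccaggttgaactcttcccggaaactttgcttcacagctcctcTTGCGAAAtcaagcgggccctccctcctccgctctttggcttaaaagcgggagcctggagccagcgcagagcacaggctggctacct
Nlrp12: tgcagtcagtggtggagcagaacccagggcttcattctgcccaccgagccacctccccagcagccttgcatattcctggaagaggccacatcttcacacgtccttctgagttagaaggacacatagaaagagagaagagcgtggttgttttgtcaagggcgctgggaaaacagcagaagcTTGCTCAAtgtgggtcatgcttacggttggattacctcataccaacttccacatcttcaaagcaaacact
Tifab: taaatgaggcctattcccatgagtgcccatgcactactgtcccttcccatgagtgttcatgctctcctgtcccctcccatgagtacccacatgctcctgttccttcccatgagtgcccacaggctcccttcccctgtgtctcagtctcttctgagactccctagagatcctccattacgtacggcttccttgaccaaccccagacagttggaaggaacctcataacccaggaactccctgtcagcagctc
S100a9 holds TTGCTTAA 236 to 229 bases before the start, Steap4 TTGCGAAA at 87 to 80 and Nlrp12 TTGCTCAA at 70 to 63. Tifab holds none of the 3 motifs searched. Of the 8 leading neutrophil genes with a window, 3 held the C/EBP core and the other 5 (Il1f9, Dhrs9, Mrgpra2a, Stfa2l1 and Stfa2) held none of the 3 motifs. None of the 7 leading monocyte genes with a window held the C/EBP core. Among them Ccr2 held TTCTCTTTC, a match to the interferon element core given below, 86 to 78 bases before the start. The others held none of the 3 motifs. The C/EBP core was in 9.17% of 1887 windows of genes called higher in neutrophils, 7.77% of 2536 windows of genes called higher in monocytes, 7.98% of 12098 windows of genes tested and 9.56% of all 32851 windows. The PU.1 core GAGGAAGT (reverse ACTTCCTC) was in 4.03%, 2.84%, 2.84% and 2.44% of the same sets, and the interferon element core GAAANNGAA (reverse TTCNNTTTC) in 7.79%, 7.18%, 6.64% and 7.13%. The shares differ by less than 2 percentage points between neutrophil and monocyte genes for each motif, and a match is a description of letters, not of a bound site. A window was found for 15 of the 20 leading genes and for 3493 of the 5576 called genes.

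Transcripts of the proteins used for sorting followed the gate only in part. Ptprc (CD45) was at 107, 97.5, 84.7 and 82.4 RPKM in neutrophils and 60.1, 61.4, 59.6 and 51.6 in monocytes, and its difference of 1.46 ± 0.14 was just under the fold threshold. Itgam (CD11b) differed by 1.29 ± 0.16 and was likewise not called. Ly6g, the antigen that defines the neutrophil gate, was at 1.47, 3.62, 1.73 and 8.29 RPKM in neutrophils and 3.33, 5.93, 1.25 and 2.40 in monocytes. These groups overlapped, and the difference of 1.01 ± 0.64 had an adjusted p of 0.211. It was 1.44 within titles 13 and 14 and 1.41 within titles 15 and 16, and 0.22 without neutrophil replicate 4. Ly6c2, one of the near-identical genes for the Ly6C antigen, was at 0.645, 0.647, 1.15 and 5.21 RPKM in neutrophils and 31.4, 81.8, 13.01 and 21.8 in monocytes (-3.44 ± 0.86, adjusted p = 0.00786). Neutrophil replicate 4 and monocyte replicate 2 were the highest of their groups, and the difference was -4.69 and -2.61 without these. Ly6c1 gave -3.48 ± 0.85, or -4.76 and -2.67. Epcam, absent from the gated cells, was under 0.05 RPKM in all 8 libraries.

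Neutrophil markers were called higher in neutrophils for 16 of 18 genes, with a median difference of 7.50, and none was called higher in monocytes. Csf3r, the receptor for the granulocyte growth factor G-CSF, was at 363, 309, 296 and 319 RPKM in neutrophils and 14.9, 18.4, 15.4 and 13.9 in monocytes (5.14 ± 0.19, adjusted p = 6.05e-07). Its levels varied little within a group. S100a8, the partner of S100a9, was at 3805, 1913, 788 and 1768 RPKM in neutrophils and 2.10, 9.37, 2.88 and 1.78 in monocytes (9.74 ± 0.83, or 10.65 without monocyte replicate 2). Retnlg, a secreted resistin-like protein, was at 633, 551, 218 and 448 RPKM in neutrophils and 5.97, 71.8, 5.10 and 0.993 in monocytes (5.19 ± 1.20, or 7.67 without monocyte replicate 2). In Retnlg monocyte replicate 2 lay far above the other monocyte libraries. The 2 markers not called were Ly6g and Cd177, a surface glycoprotein that binds the integrin CD11b/CD18 complex on neutrophils. Cd177 was at 3.85, 7.38, 5.32 and 9.79 RPKM in neutrophils and 8.88, 19.2, 13.7 and 15.4 in monocytes, with overlapping groups and a difference of -0.35 ± 0.34 (adjusted p = 0.411).

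Monocyte markers were called higher in monocytes for 16 of 18 genes, with a median of -5.00, and none was called higher in neutrophils. Csf1r, the receptor for the monocyte growth factor CSF-1, was at 18.9, 20.02, 13.3 and 14.3 RPKM in neutrophils and 92.8, 121, 108 and 75.1 in monocytes (-1.81 ± 0.18). F13a1, a clotting factor subunit stored by monocytes, was at 58.1, 108, 55.1 and 71.1 RPKM in monocytes and 0.942, 0.767, 0.0846 and 0.0425 in neutrophils (-6.65 ± 0.93, or -7.29 without neutrophil replicate 1). Fn1, which encodes fibronectin, was at 79.4, 85.4, 108 and 140.3 RPKM in monocytes and 0.328, 0.795, 0.0682 and 0.0239 in neutrophils (-7.78 ± 1.01, or -8.75 without neutrophil replicate 2). Within neutrophils both genes were lowest in replicates 3 and 4, the libraries of titles 15 and 16, and every monocyte library lay far above every neutrophil library. Ms4a4c, a membrane protein of the MS4A family, differed by -7.91 ± 0.73. The pore-forming protein Mpeg1 differed by -1.09 ± 0.18 and was not called, and Adgre1 (F4/80) by -0.05 ± 0.23 (adjusted p = 0.869), a value whose sign changed between settings.

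Genes of Ly6C-low monocytes were also present, although that subset lies outside the gate: 5 of 10 were called higher in monocytes, 1 in neutrophils and 4 were not called (median -2). Ace, angiotensin-converting enzyme, was at 35.5, 24.6, 30.7 and 23.4 RPKM in monocytes and 0.414, 0.282, 0.00558 and 0.0187 in neutrophils (-6.63 ± 1.05, or -7.45 without neutrophil replicate 1). Nr4a1, the nuclear receptor that Ly6C-low monocytes require, was at 19.8, 18.4, 23.6 and 30.1 RPKM in monocytes and 3.95, 8.57, 4.76 and 4.33 in neutrophils (-1.35 ± 0.27, not called). Adgre4, an adhesion receptor, differed by -6.09 ± 0.64. Treml4 was at 8.01, 12.4, 7.37 and 5.91 RPKM in neutrophils and 17.3, 26.2, 12.8 and 8.86 in monocytes, with overlapping groups. Cd300ld, a receptor of the CD300 family, was the gene called higher in neutrophils (2.75 ± 0.44). Whether these transcripts come from Ly6C-low cells in the sort was not tested.

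**Figure D3:**
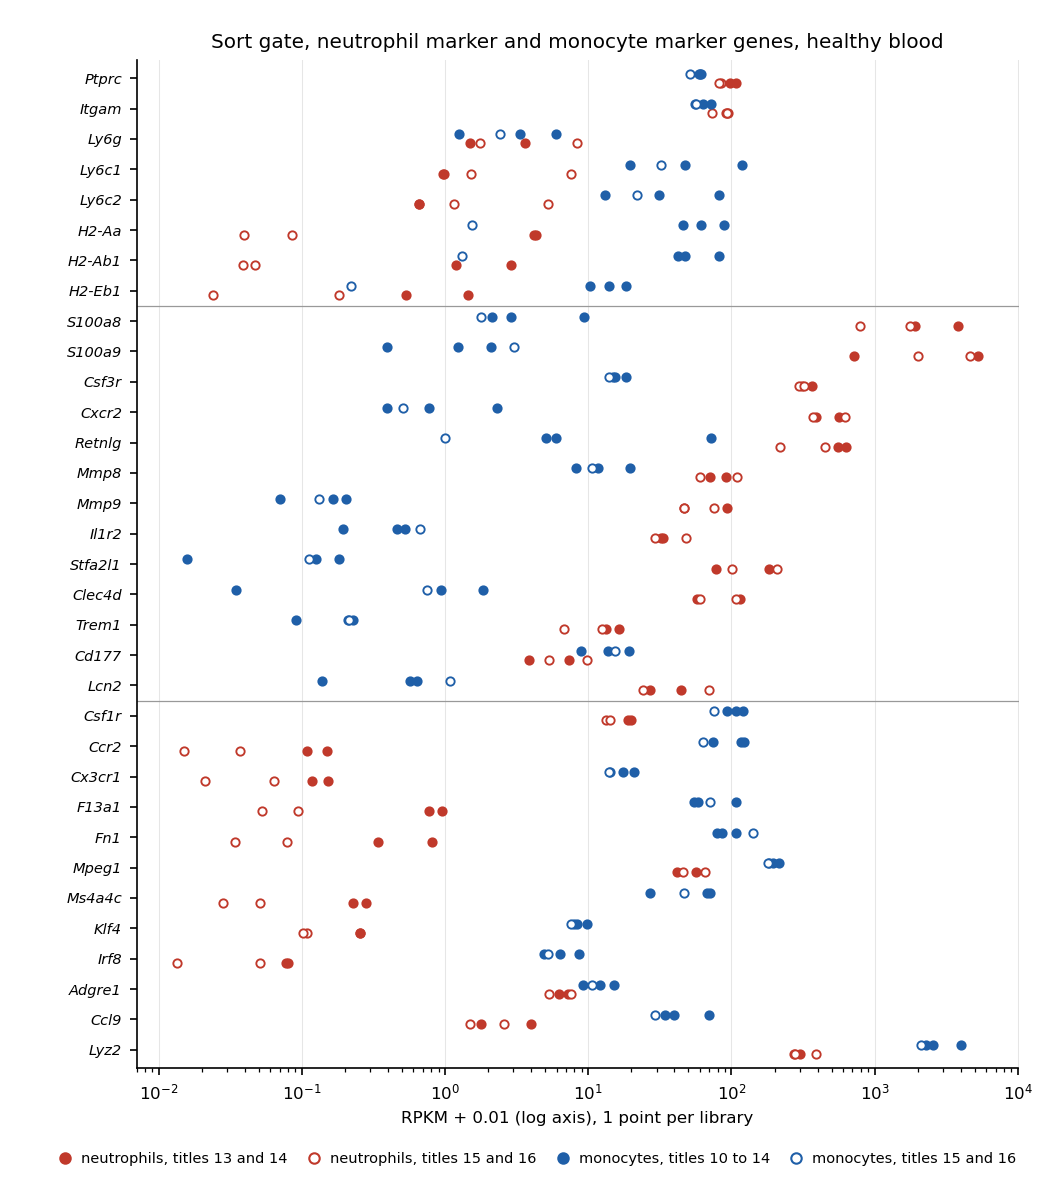
RPKM plus 0.01 (log axis, 1 point per library) of the sort gate, neutrophil marker and monocyte marker genes named in the text, in the 4 neutrophil and 4 monocyte libraries, red for neutrophils and blue for monocytes, with open circles for titles 15 and 16. Csf3r lies at 296 to 363 RPKM in neutrophils against 13.9 to 18.4 in monocytes, whereas the points of Ly6g (1.25 to 8.29 over both groups) and Cd177 overlap.

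The most abundant transcripts differed by cell type below a shared top of ribosomal RNA. By mean RPKM mt-Rnr2 and mt-Rnr1, the mitochondrial ribosomal RNAs, led both groups and were not called (-1.01 ± 0.45 and -0.82 ± 0.34). Gm20594, a gene model whose sequence resembles mt-Rnr2, was also among the 10 highest in both. In neutrophils S100a9, S100a8, Malat1, Il1b and Cxcr2 were also among the 10, and in monocytes Lyz2, Lyz1 and mt-Co1 with its nuclear copy Gm13340. Malat1, a nuclear non-coding RNA, was at 862, 912, 1068 and 1060 RPKM in neutrophils and 262, 215, 353 and 296 in monocytes (2.59 ± 0.22). Lyz2, the lysozyme of myeloid cells, was at 271, 299, 276 and 388 RPKM in neutrophils and 2290, 4026, 2555 and 2124 in monocytes (-2.37 ± 0.26). Both lysozyme genes were abundant in both cells and higher in every monocyte library than in any neutrophil library, but reads of Lyz1 and Lyz2 may not be separable. B2m, the light chain of MHC class I, was at 799, 891, 1119 and 2121 RPKM in neutrophils and 1968, 1187, 1495 and 1404 in monocytes (0.53 ± 0.33, adjusted p = 0.205). CT010467.1, a ribosomal RNA locus, was at 33.7, 984, 941 and 1001 RPKM in neutrophils and 2066, 332, 2358 and 1700 in monocytes (-0.31 ± 0.83), and Mir6236, which lies in similar sequence, differed by -0.73 ± 0.66, and neutrophil replicate 1 stood far below the other neutrophil libraries in both. The difference of CT010467.1 was -3.02 within titles 13 and 14 and -0.01 within titles 15 and 16.

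Granule proteins were ordered by the stage at which their granules form. None of 5 azurophil granule genes, the earliest class, reached the level needed for a test, and Mpo was at most 0.0229 RPKM in any library. Of 8 specific granule genes tested, 5 were called higher in neutrophils and 2 in monocytes (median 3.55). Ltf, lactoferrin, was at 0.733, 1.47, 0.288 and 0.506 RPKM in neutrophils and 0.133, 0.234, 0.240 and 0.0910 in monocytes (2.80 ± 0.53). Lcn2, an iron-sequestering lipocalin, was at 26.9, 44.6, 24.1 and 69.8 RPKM in neutrophils and 0.631, 0.558, 0.129 and 1.08 in monocytes (6.86 ± 0.70), far above lactoferrin. Olfm4, a granule glycoprotein of a neutrophil subset, was at 0.878, 1.22, 0.519 and 1.01 RPKM in neutrophils and had a rounded count of 0 in every monocyte library, at least 208-fold higher against a floor of 3 counts over the group. Ngp, a cathelicidin-like granule protein, differed by 8.41 ± 0.52. Chil3, a chitinase-like lectin, went the other way, at 0.208, 0.417, 0.196 and 0.171 RPKM in neutrophils and 16.5, 34.1, 15.7 and 13.9 in monocytes (-5.58 ± 0.42), and Lyz2 was the other gene higher in monocytes.

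All 5 genes listed as gelatinase granule or late genes were called higher in neutrophils (median 4.91). The list placed Mmp8 here and not among the specific granule genes, so the counts of both classes rest on that choice. Mmp9, gelatinase B, was at 46.4, 93.4, 46.4 and 75.7 RPKM in neutrophils and 0.0602, 0.156, 0.192 and 0.121 in monocytes (9.69 ± 0.48, adjusted p = 2.04e-06). Mmp8, neutrophil collagenase, was at 70.6, 91.4, 60.7 and 109.8 RPKM in neutrophils and 11.7, 19.5, 8.23 and 10.6 in monocytes (3.50 ± 0.32). Neither gene overlapped between the groups. Adam8, a membrane metalloproteinase, differed by 4.91 ± 0.63, and Mmp25, another, by 5.32 ± 0.66. Without monocyte replicate 2 these values were 5.999 and 5.93. Pglyrp1, a peptidoglycan-binding protein of specific granules, was at 38.96, 100.5, 68.1 and 130 RPKM in neutrophils and 8.09, 6.25, 8.29 and 6.94 in monocytes (4.30 ± 0.37).

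The S100 family was divided between the cells. Beside S100a8 and S100a9, S100a11 was higher in neutrophils (44.3, 58.6, 53.9 and 90.3 RPKM against 9.22, 16.8, 8.84 and 11.2, 3.21 ± 0.34). S100a4 was at 0.265, 0.591, 4.67e-04 and 0.174 RPKM in neutrophils and 119.9, 60.5, 81.03 and 59.7 in monocytes (-7.48 ± 0.66, or -8.21 without neutrophil replicate 2). S100a10, the annexin A2 partner, was at 0.0571, 1.12, 0.0868 and 0.0824 RPKM in neutrophils and 14.7, 9.15, 10.4 and 10.6 in monocytes (-4.36 ± 0.84, or -6.25 without neutrophil replicate 2). S100a6 (1.30 ± 0.32) and S100a1 were not called, which gives 3 of 7 S100 genes higher in neutrophils and 2 in monocytes. Of 9 stefin genes 8 were called higher in neutrophils, with a fitted median of 10.37 that becomes 7.88 when genes without monocyte counts are set at their bounds and genes with 1 to 3 counts at their ratios.

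The NADPH oxidase, which makes superoxide, was also divided, with 4 of 8 genes called higher in neutrophils and 1 in monocytes. Cybb, the catalytic membrane subunit gp91phox, was at 4.49, 5.92, 3.19 and 3.93 RPKM in neutrophils and 161, 194, 141 and 122 in monocytes (-4.38 ± 0.20, adjusted p = 1.89e-06). Every monocyte library was above every neutrophil library. Rac2, the GTPase of the complex, differed by 2.14 ± 0.18, and Ncf1 (p47phox) by 1.67 ± 0.30, a call lost at 1.45 without neutrophil replicate 2.

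Chemoattractant receptors guide both cells into tissue. All 4 CXC chemokine receptors tested were called higher in neutrophils. Cxcr2, the receptor for the neutrophil chemokines CXCL1 and CXCL2, was at 561, 386, 372 and 617 RPKM in neutrophils and 0.381, 2.28, 0.762 and 0.494 in monocytes (9.72 ± 0.75, or 10.63 without monocyte replicate 2). Its relative Cxcr1 was at 2.62, 2.04, 0.637 and 1.94 RPKM in neutrophils and had a rounded count of 0 in every monocyte library, at least 356-fold higher on the same floor. Cxcr4, which retains cells in the marrow, was at 71.03, 50.5, 39.5 and 40.4 RPKM in neutrophils and 9.59, 10.4, 14.9 and 6.82 in monocytes (3.05 ± 0.27). The level of Cxcr2 was the highest of the 4 in every neutrophil library. Of 7 CC and CX3C receptors 2 were called higher in neutrophils and 3 in monocytes. Ccr1 was at 38.1, 34.5, 36.1 and 46.7 RPKM in neutrophils and 1.15, 1.88, 0.974 and 1.10 in monocytes (5.71 ± 0.31). Beside Ccr2, the fractalkine receptor Cx3cr1 was higher in monocytes, at 14.3, 20.98, 17.6 and 14.02 RPKM against 0.107, 0.142, 0.0539 and 0.0110 in neutrophils (-7.01 ± 0.57). Ccr3, the eotaxin receptor, was at 0.218, 21.6, 0.338 and 0.0484 RPKM in monocytes, where replicate 2 alone was high, and its uncalled difference of -1.66 ± 1.46 turned to 3.22 without it (adjusted p = 0.00155), a call in the opposite direction.

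Receptors for formyl peptides, complement fragments and lipids were called higher in neutrophils for 5 of 7 genes (median 4.90), and none was called higher in monocytes. Fpr1, the formyl peptide receptor, was at 25.9, 24.2, 20.6 and 35.6 RPKM in neutrophils and 0.367, 0.0495, 0.868 and 0.239 in monocytes (6.90 ± 0.69, or 7.70 without monocyte replicate 3). C5ar1, the receptor for the complement fragment C5a, was at 76.2, 48.8, 58.9 and 98.1 RPKM in neutrophils and 1.03, 4.19, 3.49 and 1.09 in monocytes (5.64 ± 0.58). In both genes the groups were separated in every library. Fpr2 differed by 4.90 ± 0.42 and Ptafr, the receptor for platelet-activating factor, by 3.03 ± 0.24.

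Csf3r was called higher in neutrophils and Csf1r in monocytes. Of 6 colony-stimulating factor receptors tested 1 was called higher in neutrophils, 2 in monocytes and 3 in neither. The alpha chain of the GM-CSF receptor, Csf2ra, was at 18.5, 24.5, 22.2 and 27.97 RPKM in neutrophils and 23.6, 29.8, 33.3 and 27.9 in monocytes (0.48 ± 0.21, adjusted p = 0.0771), and the common beta chain Csf2rb differed by 1.43 ± 0.22, just under the fold threshold. Among cytokine receptors 6 of 18 were called higher in neutrophils and 3 in monocytes. Il1r2, the decoy receptor for interleukin-1, was at 33.03, 32.2, 29.2 and 47.9 RPKM in neutrophils and 0.455, 0.517, 0.184 and 0.661 in monocytes (7.07 ± 0.46). Il1rap, the accessory chain that signals for interleukin-1, differed by 3.17 ± 0.44, or 3.83 without monocyte replicate 2. Il6st, the signaling chain gp130 of the interleukin-6 family, was at 0.0191, 0.0743, 0.0354 and 0.0299 RPKM in neutrophils and 7.52, 3.75, 6.81 and 7.64 in monocytes (-6.56 ± 0.43, adjusted p = 5.41e-06). Every neutrophil library thus had less than 0.1 RPKM of it. Il10ra, the interleukin-10 receptor, differed by -1.99 ± 0.34. Ifngr1, a chain of the interferon-γ receptor, differed by -1.57 ± 0.21, a call lost without neutrophil replicate 3 (-1.46) or monocyte replicate 2 (-1.44) and with the title number as a fixed (-1.28) or random block (-1.46).

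Of transcription factors linked to neutrophils, 4 of 7 were called higher in neutrophils and 1 in monocytes. Mxd1, a repressor that opposes MYC, was at 112, 172, 154 and 331 RPKM in neutrophils and 3.28, 3.03, 3.62 and 4.39 in monocytes (6.54 ± 0.42, adjusted p = 5.00e-06). Cebpd, a C/EBP factor, was at 17.4, 23.2, 13.2 and 19.8 RPKM in neutrophils and 3.52, 3.36, 2.62 and 2.25 in monocytes (3.42 ± 0.22). Cebpa, which acts earlier in the lineage, went the other way (-2.25 ± 0.51) at low levels of 0.118, 0.288, 0.172 and 0.447 RPKM in neutrophils and 2.67, 1.38, 3.36 and 1.14 in monocytes. Junb, a subunit of AP-1, differed by 2.90 ± 0.34. Of factors linked to monocytes or to both cells, 8 of 19 were called higher in monocytes and 4 in neutrophils. Irf8, which directs progenitors to monocytes, was at 0.0672, 0.0704, 0.0413 and 0.00333 RPKM in neutrophils and 4.89, 8.55, 6.38 and 5.24 in monocytes (-6.36 ± 0.62). Klf4, required for Ly6C-high monocytes, was at 0.243, 0.243, 0.0993 and 0.0917 RPKM in neutrophils and 8.30, 9.74, 7.95 and 7.57 in monocytes (-4.90 ± 0.35). Both genes stayed below 0.3 RPKM in every neutrophil library. Irf4 differed by -6.55 ± 0.56, or -7.15 without neutrophil replicate 2. Klf2 and Fos were the opposite, with 2.89 ± 0.42 and 2.34 ± 0.24. Spi1, which encodes PU.1 and is needed by both lineages, was at 27.3, 36.8, 27.4 and 37.2 RPKM in neutrophils and 22.9, 31.4, 21.2 and 18.9 in monocytes (1.23 ± 0.20), with overlapping groups and no call.

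Among 11 Toll-like receptors tested, 3 were called higher in neutrophils and 5 in monocytes. Those higher in neutrophils sense bacterial surfaces. Tlr4, the lipopolysaccharide receptor, was at 9.98, 6.62, 5.65 and 9.12 RPKM in neutrophils and 2.41, 3.56, 2.20 and 1.97 in monocytes (2.41 ± 0.27). Tlr5, the flagellin receptor, differed by 2.75 ± 0.28, and Tlr2 by 1.69 ± 0.34, a call lost at 1.46 without neutrophil replicate 1. Of the 5 higher in monocytes, Tlr3, Tlr7 and Tlr9 are endosomal sensors of nucleic acids. Tlr7, a sensor of single-stranded RNA, was at 2.02, 1.16, 2.06 and 2.81 RPKM in neutrophils and 42.4, 44.9, 39.4 and 42.2 in monocytes (-3.58 ± 0.32). Tlr9, a sensor of unmethylated DNA, was at 0.171, 0.171, 0.0770 and 0.0527 RPKM in neutrophils and 38.1, 33.8, 23.7 and 37.3 in monocytes (-7.41 ± 0.40, adjusted p = 2.54e-06). No neutrophil library came near a monocyte library in either gene. Tlr11, a sensor of profilin, had a rounded count of 0 in every neutrophil library and was at 1.35, 0.612, 1.03 and 0.629 RPKM in monocytes, at least 180.2-fold higher there. Tlr1 was higher in monocytes (-1.75 ± 0.38), a call lost at -1.37 without monocyte replicate 2 and at -1.19 with the title number as a fixed block. Of 8 co-receptors and adaptors 2 were called higher in neutrophils and 3 in monocytes. Cd14, which hands lipopolysaccharide to TLR4, was at 72.7, 106, 38.9 and 36.8 RPKM in neutrophils and 3.92, 9.79, 7.90 and 5.13 in monocytes (3.96 ± 0.40), and Cd180 was the reverse (-5.32 ± 0.44, or -4.71 without monocyte replicate 2).

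Fc receptors, lectins and paired receptors held calls in both directions. Of 5 Fc receptors Fcgr4 and Fcgr3, low-affinity receptors for IgG, were called higher in neutrophils (2.40 ± 0.49 and 1.73 ± 0.27), but Fcgr3 gave 1.41 without the libraries of titles 15 and 16. Fcgr1, the high-affinity receptor, was at 0.195, 0.0898, 0.189 and 1.42 RPKM in neutrophils and 22.9, 33.4, 10.9 and 15.6 in monocytes (-4.62 ± 0.89, or -6.24 without neutrophil replicate 4, whose level was the highest of its group). Of 10 C-type lectins 5 were called higher in neutrophils and 2 in monocytes. Clec4d, a receptor for fungal and mycobacterial glycolipids, was at 57.9, 114, 60.6 and 108 RPKM in neutrophils and 0.933, 0.0248, 1.84 and 0.743 in monocytes (7.35 ± 0.87, or 7.99 without monocyte replicate 3). Clec7a (dectin-1), the receptor for β-glucan, differed by 2.02 ± 0.30. Clec4a1 was higher in monocytes (-1.86 ± 0.49, or -2.53 without neutrophil replicate 4). Of 13 paired and inhibitory receptors 10 were called higher in neutrophils and 1 in monocytes. Trem1, which amplifies inflammation, was at 16.4, 13.2, 6.72 and 12.5 RPKM in neutrophils and 0.216, 0.0804, 0.201 and 0.205 in monocytes (6.87 ± 0.39). Siglece, an inhibitory receptor for sialic acid, was at 46.5, 44.1, 56.7 and 79.03 RPKM in neutrophils and 2.98, 2.09, 3.82 and 3.58 in monocytes (4.99 ± 0.34), and Cd300lf differed by 4.61 ± 0.33.

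Complement and clearance genes were the reverse. Of 6 complement genes 4 were called higher in monocytes, and none in neutrophils. C3, the central component, was at 8.62, 13.6, 6.82 and 8.10 RPKM in neutrophils and 65.3, 61.1, 71.3 and 81.6 in monocytes (-2.17 ± 0.20). Of 7 scavenger and clearance receptors 5 were called higher in monocytes and 1 in neutrophils. Msr1, a scavenger receptor, was at 0.0416, 0.0705, 0.00208 and 0.0532 RPKM in neutrophils and 22.99, 12.2, 18.7 and 17.1 in monocytes (-7.97 ± 0.59). Axl, a receptor for dying cells, was at 0.334, 0.0599, 0.0253 and 0.0754 RPKM in neutrophils and 11.5, 18.7, 7.31 and 5.24 in monocytes (-5.72 ± 0.80, or -6.86 without neutrophil replicate 1). Both were below 0.5 RPKM in all neutrophil libraries.

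MHC class II presentation was called higher in monocytes for 9 of 13 genes and higher in neutrophils for 1 (median -3.61), although MHCII+ cells were gated out. The levels depended on the library. H2-Aa, a chain of the class II molecule, was at 4.33, 4.16, 0.0296 and 0.0755 RPKM in neutrophils and 61.6, 89.4, 45.98 and 1.52 in monocytes. Monocyte replicate 4 lay below neutrophil replicates 1 and 2, so the groups overlapped. The difference of -3.85 ± 1.45 had an adjusted p of 0.0483, which rose to between 0.0608 and 0.0856 without any 1 of the libraries other than monocyte replicate 4. Its value was -4.50 without neutrophil replicate 1. H2-Ab1 differed by -4.75 ± 1.43, or -5.96 without neutrophil replicate 2. H2-Eb1 differed by -3.63 ± 1.24 (adjusted p = 0.0335), or -4.72 without neutrophil replicate 2, and its call was lost without any 1 of neutrophil replicates 1, 3 and 4 and monocyte replicates 1 to 3. With the title number as a random block none of H2-Aa, H2-Ab1 and H2-Eb1 was called (adjusted p = 0.0879, 0.0892 and 0.207), and H2-Eb1 was -1.90 with it as a fixed block (adjusted p = 0.103). Cd74, the invariant chain, was at 12.8, 14.1, 1.37 and 1.03 RPKM in neutrophils and 172, 153, 229.5 and 27.9 in monocytes (-3.61 ± 0.89, adjusted p = 0.00755). It was lowest in the libraries of titles 15 and 16 in both cells, and its difference was -3.42 within titles 13 and 14 and -3.69 within titles 15 and 16. Ciita, the class II activator, differed by -4.17 ± 0.95, or -5.02 without neutrophil replicate 1. Platelet and erythroid sums were low in the libraries of titles 15 and 16 too. In monocytes of tumor-bearing mice the class II sum was 208 and 663 RPKM where Xist was at 15.3 or more. It was 28.5 and 43.1 RPKM where Xist was below 0.05. The parts of sex and of other cells in the class II levels were not tested. Cd80, a co-stimulatory ligand, was the gene higher in neutrophils, at 10.2, 8.99, 6.28 and 5.34 RPKM against 1.27, 0.499, 1.03 and 0.789 in monocytes (3.88 ± 0.33).

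Of 4 interleukin-1 ligand and inhibitor genes 3 were called higher in neutrophils and none in monocytes. Il1b, the main secreted agonist, was at 581, 694, 556 and 725 RPKM in neutrophils and 6.90, 10.4, 6.04 and 2.65 in monocytes (7.41 ± 0.43, adjusted p = 3.18e-06). Il1rn, the interleukin-1 receptor antagonist, was at 50.3, 29.1, 35.02 and 46.7 RPKM in neutrophils and 4.03, 3.86, 2.97 and 2.72 in monocytes (4.37 ± 0.26). The agonist and the antagonist were thus both higher in neutrophils, as was the decoy receptor Il1r2. Of 8 inflammasome genes 1 was called higher in neutrophils, the sensor Nlrp3 at 28.1, 25.7, 22.6 and 29.7 RPKM against 4.38, 6.64, 5.31 and 5.05 in monocytes (3.09 ± 0.21), and 2 in monocytes, among them the flagellin sensor adaptor Nlrc4 (-4.08 ± 0.46). Cxcl2, a neutrophil chemokine, was at 1.34, 2.67, 0.840 and 46.8 RPKM in neutrophils and 0.0886, 0.0796, 0.0827 and 2.74 in monocytes. Replicate 4 was the high library in both groups, and the difference of 4.85 ± 1.75 (adjusted p = 0.0416) was 1.72 without neutrophil replicate 4 and 8.16 without monocyte replicate 4, with the call also lost without monocyte replicate 1, 2 or 3. Of 6 CC chemokines 1 was called higher in neutrophils and 3 in monocytes, with Ccl6 higher in neutrophils (1.82 ± 0.31) and Ccl9 in monocytes (-3.41 ± 0.36). Of 11 other cytokines 6 were called higher in neutrophils and 1 in monocytes. Osm, oncostatin M, and Il15 were higher in neutrophils (3.46 ± 0.60 and 2.91 ± 0.47), and Cxcl9, a T-cell chemokine, in monocytes (-4.52 ± 0.66).

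Genes induced by type I interferon were called higher in neutrophils for 13 of 26 genes and higher in monocytes for 2 (median 1.73). The shares of all genes tested were 16.7% and 20.4%. Their sum was 550.2, 477, 1496 and 3028 RPKM in neutrophils and 648, 504, 312 and 616 in monocytes. The difference of the sums did not pass (exact permutation test, p = 0.257, adjusted p = 0.336), and only neutrophil replicates 3 and 4 lay above the monocytes. In tumor-bearing mice 6 of the 26 genes were called higher in neutrophils and 8 in monocytes (median 0.38). Ifit3 was at 25.4, 20.02, 116 and 269.9 RPKM in neutrophils and 25.6, 19.01, 7.74 and 17.6 in monocytes (3.50 ± 0.85, adjusted p = 0.00682). Neutrophil replicates 3 and 4 (titles 15 and 16) were high and replicates 1 and 2 lay within the range of the monocytes. The difference was 1.10 (adjusted p = 0.123) without titles 15 and 16 and 2.54 without neutrophil replicate 4. With the replicate number as a block the call was lost as well (2.76, adjusted p = 0.0531). Slfn4, a Schlafen gene, was at 158, 126, 377 and 770.4 RPKM in neutrophils and 30.8, 22.1, 5.96 and 17.3 in monocytes (5.10 ± 0.75, or 4.41 without neutrophil replicate 4). Its groups did not overlap, and the same holds for Rsad2 (4.08 ± 0.80, or 3.28 without neutrophil replicate 4). Mx1, an antiviral GTPase, was the reverse, at 0.0354, 0.0229, 0.225 and 0.703 RPKM in neutrophils and 12.7, 15.1, 7.35 and 18.04 in monocytes (-4.90 ± 0.99, or -6.21 without neutrophil replicate 4).

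Cd44, the hyaluronan receptor, was at 180.3, 104, 100.3 and 116 RPKM in neutrophils and 45.7, 57.8, 62.2 and 56.1 in monocytes (1.95 ± 0.23), higher in every neutrophil library. Of 8 integrin genes 1 was called higher in neutrophils and 1 in monocytes, against 16.7% and 20.4% of all genes tested. Itgb2, the β2 chain shared by the leukocyte integrins, was at 70.5, 86.2, 56.3 and 74.2 RPKM in neutrophils and 62.6, 83.2, 56.7 and 53.8 in monocytes (0.93 ± 0.18, not called), and Itgb1, the β1 chain, was higher in monocytes (-2.18 ± 0.31).

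Of 13 lipid mediator genes 4 were called higher in neutrophils and 1 in monocytes, against 16.7% and 20.4% of all genes tested. Alox5, 5-lipoxygenase, was at 12.3, 13.3, 14.03 and 15.8 RPKM in neutrophils and 0.409, 1.69, 0.654 and 0.530 in monocytes (4.86 ± 0.49, or 5.54 without monocyte replicate 2). Ptgs2, cyclooxygenase-2, was at 13.98, 17.8, 20.6 and 29.2 RPKM in neutrophils and 0.0941, 0.0863, 0.291 and 0.895 in monocytes (6.64 ± 0.86, or 7.85 without monocyte replicate 4). Pla2g7, which degrades platelet-activating factor, differed by 3.10 ± 0.23. The prostaglandin-making enzyme was thus higher in neutrophils and the prostaglandin-degrading Hpgd in monocytes. The list of 11 T-cell suppression genes holds genes that the study names in that context. Among them Mmp9 and the TGF-beta ligand genes are displayed there for cells sorted from tumors. In the study's co-cultures with tumor neutrophils, blocking arginase, iNOS, adenosine signaling, Ptgs2 or IL10 did not restore the proliferation of T cells. Blocking TGF-beta, its receptor or matrix metalloproteinases was reported to raise that proliferation. Of the 7 genes of the list that were tested, 4 were called higher in neutrophils (Mmp9, Ptgs2, Arg2 and Entpd1) and none in monocytes. Arg2, mitochondrial arginase, was at 31.3, 33.2, 24.4 and 37.2 RPKM in neutrophils and 0.7505, 0.00915, 0.396 and 0.407 in monocytes (7.10 ± 0.68). Entpd1 (CD39), which hydrolyzes extracellular ATP, was at 31.1, 29.1, 25.9 and 26.2 RPKM in neutrophils and 2.59, 5.08, 2.64 and 1.64 in monocytes (4.01 ± 0.34). Tgfb1 was at 1.74, 3.30, 3.01 and 2.44 RPKM in neutrophils and 14.6, 7.41, 12.5 and 11.5 in monocytes (-1.33 ± 0.27), under the fold threshold. Its 4 monocyte libraries all lay above the neutrophil libraries on the RPKM scale.

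Survival genes were called in 5 of 18, against 37.1% of all genes tested. Mcl1, which neutrophils need to survive, was higher in neutrophils (126, 145, 96.98 and 128 RPKM against 78.5, 86.9, 61.3 and 50.2, 1.62 ± 0.18) and Bcl2 was higher in monocytes (-3.04 ± 0.80). Bcl2 was at 0.129, 0.175, 0.0343 and 0.0127 RPKM in neutrophils and 1.69, 0.240, 1.996 and 0.817 in monocytes, and without titles 15 and 16 its adjusted p was 0.0823 (-2.38).

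Slc2a3 (GLUT3) was at 25.6, 29.3, 19.9 and 23.2 RPKM in neutrophils and 0.841, 1.33, 0.520 and 0.105 in monocytes (5.92 ± 0.65), and Slc2a1 (GLUT1) differed by 2.32 ± 0.26. Pygl, glycogen phosphorylase, was at 28.96, 51.9, 28.04 and 43.2 RPKM in neutrophils and 8.20, 6.62, 9.33 and 8.53 in monocytes (2.98 ± 0.22), and Pgd, an enzyme of the pentose phosphate pathway, differed by 2.004 ± 0.22. Of 14 genes of glycogen and the pentose phosphate pathway 4 were called higher in neutrophils and 1 in monocytes, and of 21 glycolysis genes 5 were called higher in neutrophils and 2 in monocytes (median 0.97), with 14 not called. Over all genes tested 16.7% were called higher in neutrophils. Of 33 nuclear genes of the respiratory chain 12 were called higher in monocytes and none in neutrophils (median -1.27). Cyc1, cytochrome c1, was at 0.625, 1.34, 0.302 and 0.289 RPKM in neutrophils and 5.78, 10.97, 3.89 and 4.35 in monocytes (-2.59 ± 0.54). Ndufs8, a subunit of complex I, differed by -2.23 ± 0.39. Of 15 citric acid cycle genes 5 were called higher in monocytes, such as Idh3b (-2.51 ± 0.29), and 1 in neutrophils, Mdh2 (1.53 ± 0.30). The call of Mdh2 was lost at 1.22 without neutrophil replicate 2, also without monocyte replicate 1 or 4, and at 1.47 with the replicate number as a block.

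Of 13 protein-coding genes of the mitochondrial genome 12 were called higher in monocytes and none in neutrophils (median -3.73). mt-Co1, a subunit of cytochrome c oxidase, was at 65.2, 62.98, 10.1 and 11.8 RPKM in neutrophils and 621, 1099, 728 and 817 in monocytes (-3.76 ± 0.60), and differed by -2.84 within titles 13 and 14 and -5.42 within titles 15 and 16. mt-Nd1, a subunit of complex I, was at 40.9, 29.4, 3.46 and 2.78 RPKM in neutrophils and 297, 678, 338 and 406 in monocytes (-3.82 ± 0.82, or -4.55 without neutrophil replicate 1). Both were lowest in the 2 neutrophil libraries of titles 15 and 16, and monocytes were above every neutrophil library. All mitochondrial genes together took 14.5%, 11.4%, 5.63% and 5.34% of the counts in neutrophils and 20.7%, 31.8%, 18.7% and 19.7% in monocytes (9.23 ± 4.50 and 22.7 ± 6.13, SD, n = 4, exact permutation p = 0.0286, adjusted 0.0608). The RNA quality of the libraries is not given, and its part in these shares was not tested.

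Translation genes were called higher in monocytes for 19 of 46 and higher in neutrophils for none (median -1.32). Rpl4, a ribosomal protein, was at 4.70, 5.06, 2.20 and 2.23 RPKM in neutrophils and 60.7, 124, 54.9 and 40.8 in monocytes (-3.57 ± 0.40). Eif3f, an initiation factor, was at 2.45, 2.42, 1.69 and 2.23 RPKM in neutrophils and 15.2, 17.2, 15.7 and 13.03 in monocytes (-2.02 ± 0.18), and the elongation factor Eef2 was just under the fold threshold (-1.47 ± 0.20). Of 60 genes on the list 14 were too low for a test, and ribosomal protein genes have many processed copies, so counts of single ones are uncertain. Of 14 cell cycle genes 4 were called higher in monocytes and none in neutrophils, against 20.4% and 16.7% of all genes tested.

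**Figure D4:**
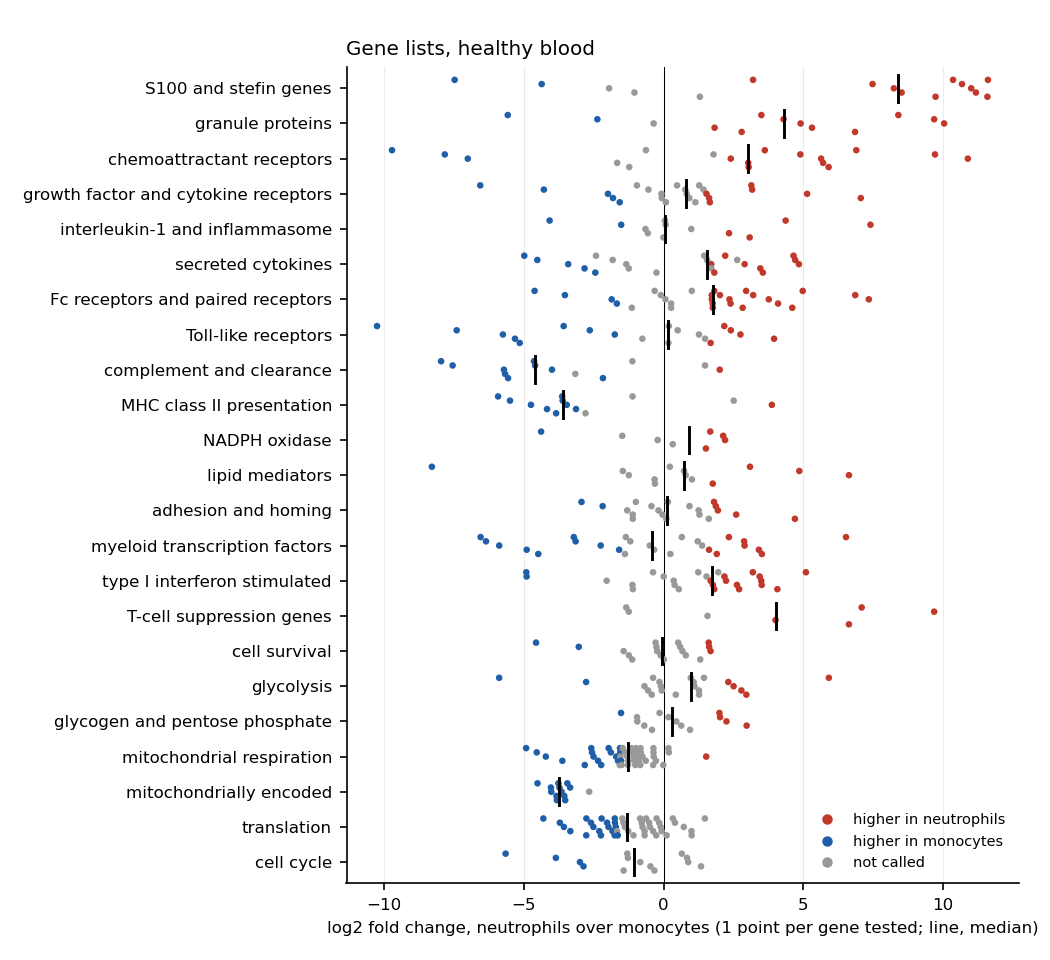
Log2 difference of neutrophils over monocytes for each tested gene of 23 gene lists (1 point per gene, black line at the median), red where called higher in neutrophils, blue where called higher in monocytes and grey where not called. Medians of the fitted values reach 8.39 for S100 and stefin genes (6.83 with genes at 0 in 1 group at their bound) and 4.30 for granule proteins, while mitochondrially encoded genes (-3.73), MHC class II presentation (-3.61) and translation (-1.32) lie on the monocyte side of the median of all genes (-0.07).

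Marker sums of other blood cells were below those of the sorted cell in every library. Erythroid sums still reached 633 RPKM (monocyte replicate 1) and platelet sums 236 (neutrophil replicate 2). None of 10 platelet genes, 8 erythroid genes or 9 B-cell genes tested was called. Platelet and erythroid levels followed the titles, or the sex that cannot be told apart from them here, rather than the cell. T-cell marker sums were between 1.54 and 4.90 RPKM in all 8 libraries. NK-cell genes were called higher in monocytes for 5 of 7 (median -4.22), and their sum was 1.47, 2.65, 1.20 and 0.864 RPKM in neutrophils and 24.0, 55.9, 20.6 and 1.68 in monocytes. Monocyte replicate 4 alone was at the neutrophil level. B-cell marker sums were 16.3 to 31.9 RPKM in neutrophils and 40.3 to 60.2 in monocytes, most of it from Ighm. Eosinophil and basophil markers summed to 21.9 RPKM in monocyte replicate 2 and to at most 5.21 in the other 7 libraries. Nearly all of it in that library was Ccr3 (21.6 RPKM), while the eosinophil granule genes Prg2 and Epx were at or below 0.25 RPKM in all 8 libraries and Mcpt8, a basophil protease, was at 0 in 6 of the 8. Of 8 T-cell genes tested 2 were called higher in neutrophils, and of 10 dendritic cell genes 3 were called higher in neutrophils and 2 in monocytes. Dendritic cell marker sums were 8.35 to 14.04 RPKM in neutrophils and 18.4 to 31.6 in monocytes. The part of these cells in the differences above was not tested.

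The same comparison in tumor-bearing mice shared no library with the healthy one. There, 5499 of 14462 genes tested (38%) were called, 2178 higher in neutrophils and 3321 in monocytes. Of the healthy calls, 5140 were tested there, 3802 (74.0%) were called the same way and 5 the other way, and those 3802 were 69.1% of the calls in tumor-bearing mice. Over 13889 genes tested in both, the log2 differences had a Pearson r of 0.878 and a Spearman correlation of 0.863, given as a description because genes are not independent replicates. Whether the difference between the cells itself differed by tumor was tested as an interaction over the 16 libraries, and 136 of 16817 genes (0.809%) passed, 63 with a more positive difference in healthy mice and 73 with a more negative one. That count was between 44 (without neutrophil replicate 3) and 127 (without neutrophil replicate 4) when 1 healthy library was left out, and 52, 88, 81 and 64 without monocyte replicates 1 to 4 and 74 and 87 without neutrophil replicates 1 and 2, so it depends on single libraries. By their transgene and agent labels healthy mice had neither, although their protocol fields repeat the tamoxifen text, and they carry another strain label than the tumor-bearing mice, so tumor, genotype, strain and treatment cannot be told apart.

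Ly6g was among the genes that passed. In tumor-bearing mice it was at 38.6, 39.3, 13.9 and 22.3 RPKM in neutrophils and 0.865, 0.957, 0.597 and 0.671 in monocytes, a difference of 5.90 ± 0.38 there against 1.01 ± 0.64 in healthy mice (interaction -4.89 ± 0.78, adjusted p = 0.00879). Levels of the sorting antigen's transcript did not overlap between the cells in tumor-bearing mice and overlapped in healthy mice. Cd177 was at 100.5, 73.2, 38.2 and 38.9 RPKM in neutrophils and 13.3, 8.73, 12.03 and 12.1 in monocytes of tumor-bearing mice, 3.14 ± 0.31 against -0.35 ± 0.34 (interaction -3.52 ± 0.48, adjusted p = 0.00276). Pparg, a lipid-sensing nuclear receptor, had 3 counts over the healthy neutrophil libraries and was at 3.05, 4.30, 1.75 and 1.11 RPKM in healthy monocytes, a ratio of counts of 291 (99.6 to 1412), and its fitted healthy difference of -8.05 was -9.03 without neutrophil replicate 3. In tumor-bearing monocytes it was at 0.297, 0.154, 0.224 and 0.375 RPKM (interaction -7.19 ± 1.65, adjusted p = 0.0490). Lrg1, a granule glycoprotein, was at 33.5, 21.1, 7.88 and 20.7 RPKM in healthy neutrophils and 0.0849, 0.0609, 0.0246 and 0.0125 in healthy monocytes, and at 56.3, 43.97, 39.8 and 184 and 8.62, 10.8, 5.11 and 2.09 in tumor-bearing mice (interaction 5.18 ± 0.93, adjusted p = 0.0168). Ngp gave 8.41 ± 0.52 in healthy and 3.47 ± 0.39 in tumor-bearing mice, and Cybb -4.38 ± 0.20 and -2.06 ± 0.20. Tlr1 was called higher in monocytes in healthy mice (-1.75 ± 0.38, or -1.37 without monocyte replicate 2) and was at 1.22 ± 0.23 without a call in tumor-bearing mice (interaction -2.99 ± 0.47, adjusted p = 0.00767).

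**Figure D5:**
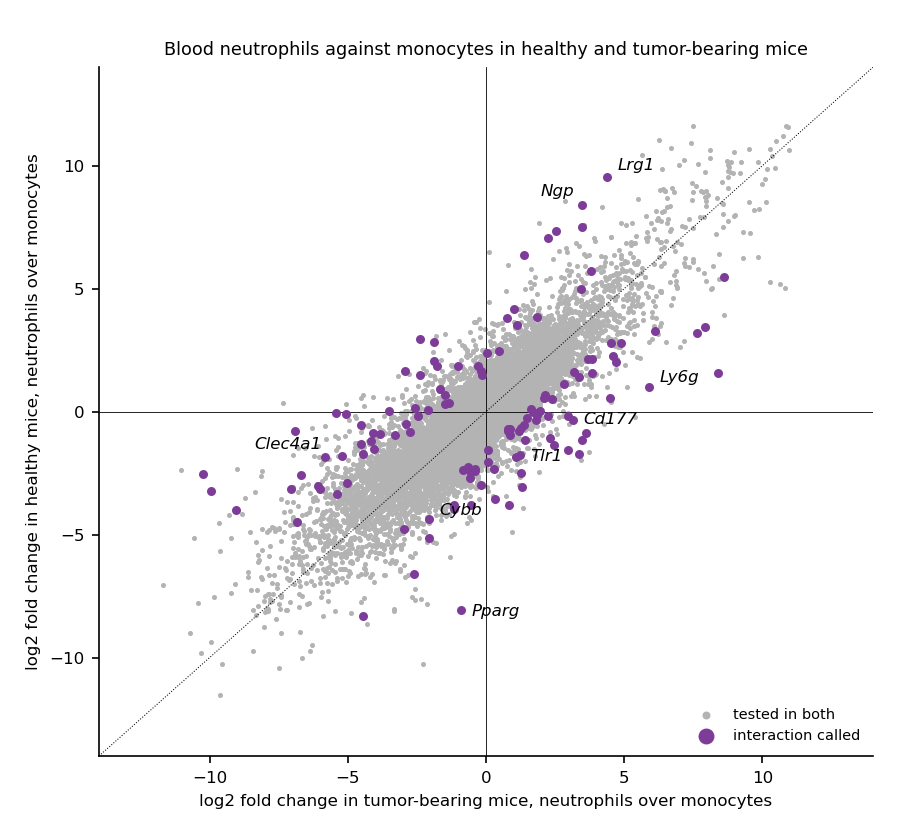
Log2 difference of neutrophils over monocytes in healthy mice against the same difference in tumor-bearing mice for the 13889 genes tested in both, 1 point per gene, with the 125 of them that passed the interaction test in purple. Most points lie along the diagonal (r = 0.878), and Ly6g lies at 5.90 in tumor-bearing and 1.01 in healthy mice.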

How the data were processed

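The authors sequenced amplified cDNA of sorted cells as single reads and, per the labels, aligned them with Bowtie2 to mm10. The deposited expected counts per gene are not whole numbers (99.577% of nonzero values at a tolerance of 1e-06) and were rounded. The deposited RPKM values, made by the authors from the same counts, were used for levels, and their scale against total counts ranged from 0.737 to 1.41 over the 8 libraries. The annotation release, the treatment of reads that map to several places and the use of strand are not given in the sources used here. Gene symbols were matched for 45143 of 45706 genes (GENCODE M21).

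Libraries were grouped by the group label. Genes passing filterByExpr were fitted with edgeR 4.0.16 (R 4.3.3) with TMM scaling and a robust quasi-likelihood test on the 8 libraries, as a count test in place of the limma-voom fit of the study, whose thresholds were kept (Benjamini-Hochberg adjusted p under 0.05 and a log2 difference beyond 1.5). The tumor-bearing groups were fitted alike, and the interaction was tested over all 16 blood libraries. Marker sums and shares were compared by a 2-sided exact permutation test. The members and the gene lists were chosen with earlier results of these data known. Named genes were the 10 called genes per direction with the largest difference among those whose mean log2 CPM reached 5 and whose groups were separate, the 10 with the highest mean RPKM per group, and genes of the lists. The fits were tested on simulated counts. Alternatives were limma-voom 3.58.1, DESeq2 1.42.0, other filters and scalings, log2 RPKM with a pseudocount, all 40 libraries, a replicate block and leaving out each library. Fits with the titles as a term and without titles 15 and 16 were added after the data were seen. Ratios of genes with few counts have intervals for counting error only, and folds against a group at 0 use a floor of 3 counts over the group. Promoter windows came from RefSeq (GRCm38.p6). Results of a few genes are not reported here.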

Additional observations from a re-analysis of the deposited data

Results flagged for a closer look

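In 29 of 300 groups of 4 values examined (9.67%) the highest or lowest library stood apart from the other 3 by Dixon's criterion. About 1 in 20 groups pass it where values are normal and groups independent. These groups reuse the same libraries and RPKM need not be normal, so the share is a description. Monocyte replicate 2 accounted for many of the 29 groups. Its mitochondrial share was 31.8% against 18.65 to 20.72% in the other monocyte libraries, its 10 highest genes took 36.96% of counts against 24.41 to 25.58%, and its 100 highest took 47.51% against 37.04 to 38.06%. It had 13870 genes at 0.1 RPKM or more against 16140 to 16290. Its RPKM was 148.5 for the neutrophil marker sum (others 51.22 to 52.24), 21.86 for the eosinophil and basophil marker sum (0.1706 to 0.975) and 21.57 for Ccr3 (0.04842 to 0.3384). The neutrophil genes S100a8 at 9.367 RPKM (1.782 to 2.885), Retnlg at 71.8 (0.9933 to 5.972), Adam8 at 3.629 (0.5968 to 0.8093) and Il1rap at 1.841 (0.5182 to 0.7104) were also high in it. So were Chil3 at 34.15 RPKM (13.87 to 16.5), Nxpe4 at 30.21 (9.95 to 10.95), mt-Rnr2 at 55530 (20210 to 21080) and Gm20594 at 11680 (9288 to 9558). Whether neutrophils or eosinophils in the sort gave these values was not tested.

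Monocyte replicate 4 stood apart with a platelet sum of 1.891 RPKM (112.7 to 118.4), an MHC class II sum of 51.31 (339.8 to 387.7) and 2.736 RPKM of Cxcl2 (0.07958 to 0.08861). The other monocyte value was mt-Rnr1 at 21120 RPKM in replicate 1 (11750 to 12430). Among neutrophils, replicate 4 stood apart with 46.8 RPKM of Cxcl2 (0.8402 to 2.665), 7.566 of Ly6c1 (0.9533 to 1.518), 5.205 of Ly6c2 (0.6451 to 1.151) and 1.416 of Fcgr1 (0.08985 to 0.1953). Neutrophil replicate 2 stood apart with 13.13 RPKM of Mdh2 (4.762 to 6.133), 1.412 of Cd180 (0.9529 to 0.9974) and 1.12 of S100a10 (0.05707 to 0.08682). Neutrophil replicate 1 was low in CT010467.1 at 33.7 RPKM (940.6 to 1001) and in Mir6236 at 36.05 (403.3 to 469.3), and replicate 3 in Itgam at 73.11 (91.09 to 94.22).

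The difference between neutrophils and monocytes differed between healthy and tumor-bearing mice by the interaction test for 10 of the named genes. The interaction (healthy minus tumor-bearing, log2) was -4.894 for Ly6g, -3.518 for Cd177, -7.191 for Pparg, 4.917 for Ngp, -2.354 for Cybb, 1.886 for Ccr1, -2.99 for Tlr1, 3.976 for Clec4a1, 1.536 for Siglece and 5.183 for Lrg1. Strain label, genotype and tamoxifen differ with the tumor and cannot be told apart from it.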

How the results depend on the processing

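The count of 5576 called genes was within 1.5 times under limma-voom, DESeq2, no filter, all 16 blood or all 40 libraries and every fit that left out 1 library (5377 to 6281). A minimum count of 10 gave 2760 of 9352 genes tested, fewer genes being tested, the log2 of RPKM plus 1 gave 1635 (485 higher in neutrophils and 1150 in monocytes), and titles 10 to 14 only gave 3807. With the replicate number as a block, 5365 genes were called, 5172 of them the same way, and 5211 in tumor-bearing mice. Libraries of the same number correlated at -0.0416, 0.0445, -0.0516 and 0.294 in their deviations over 7946 genes, so the number is not shown to pair them, and not every library correlated best with its own number. The block ended the calls of H2-Eb1, Ifit3 and Mdh2. Libraries that share a title number correlated at 0.0237, 0.203, 0.45 and 0.294, not every pair over 0.1, and the other pairs at -0.376 to 0.216. Whether a shared title number means the same mice is not stated, and the main fit treated the 8 libraries as independent. With the title number as a fixed block 6129 genes were called, but not H2-Eb1, Ifngr1 and Tlr1. As a random block it gave 5843, without H2-Aa, H2-Ab1, H2-Eb1 and Ifngr1. With titles 15 and 16 as a term Ifngr1 was not called (-1.43). The interaction count of 136 was 98 under limma-voom and 44 to 127 with 1 library left out, and 44, 52, 64, 74, 81, 87 and 88 for 7 of the 8 libraries.

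Of 3652 values of 161 named genes under the alternatives, 3511 kept direction and side of the threshold, 87 lost the call, 32 gained it and 22 changed sign, all 22 in genes that were not called. B2m became -0.38 with the log2 of RPKM plus 0.1 or plus 1 and -0.17 with titles 10 to 14 only. CT010467.1 became 0.11 without neutrophil replicate 1 (lowest with 1 library left out -0.61). Adgre1 became 0.0109 under DESeq2 and 0.0109 under RLE scaling, 0.00624 with the title number as a random block and 0.18 as a fixed block, and ranged from -0.19 to 0.15 with 1 library left out, above 0 without neutrophil replicate 2 or 4 or monocyte replicate 2. Treml4 became 0.39 with the fixed and 0.073 with the random block and ranged from -0.37 to 0.20 with 1 library left out, above 0 without monocyte replicate 2. Ccr3 became 1.88 under limma-voom, 0.47 with RPKM plus 0.1, 2.30 with the replicate block, 3.51 and 2.29 with the title blocks, and ranged from -2.06 to 3.22 with 1 library left out, above 0 without monocyte replicate 2. The 3.51 and the 3.22 passed the call (adjusted p = 0.00361 and 0.00155). Csf2ra became -0.30 and -0.29 with RPKM plus 0.1 and plus 1. With 1 library left out, differences of summed RPKM between the cells ranged from -5.335 to 72.16 for platelets, -0.2072 to 0.9121 for T cells and -3.883 to 3.349 for eosinophils and basophils. H2-Aa, H2-Ab1 and H2-Eb1 were not called under limma-voom. The causes were not tested. Genes near 0 in 1 group have log2 differences that rest on a few counts.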
